A study of Mus musculus with 24 samples.

Results

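In 3 mice, 22 lentiviral barcodes were shared by B cells and T cells of the blood but stayed under 0.01% of the reads of monocytes and of neutrophils. Every barcode in a mouse was expressed as its share of the reads of a sample. A member had to reach 0.01% in both B and T cells and 0.1% in at least 1 of them, and to lie below 0.01% in monocytes and neutrophils of the same mouse. The series as a whole listed 327974 distinct sequences, and 473 barcodes, counted per mouse, reached 0.1% in B or T cells, and the 22 members were 4.65% of these 473. Mouse 1 held 6 members, mouse 2 held 9 and mouse 3 held 7, or 7.33 ± 1.53 per mouse (SD, n = 3 mice). The members were thus selected on their measured shares in these 4 blood populations, which are given below as a description without tests.

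The samples were genomic DNA of 8 sorted populations from each of 3 recipient mice: B cells, T cells, monocytes and neutrophils, macrophages of the heart with high or low Ccr2 (Ccr2hi and Ccr2lo), and macrophages of the kidney named M1 and M2. Haematopoietic stem cells of C57BL/6 bone marrow had been cultured and infected with the barcoding lentivirus pBC008 on day 5 after plating. On day 4 after infection, GFP+ cells of the Lin, Sca1+ and cKit+ gate were sorted and transplanted together with CD45.2+ cKit+ Sca1- rescue cells. The recipients were CD45.2 males, aged 5 weeks, given 9 Gy to the whole body, and organs were taken 2 months later. All 24 samples share this treatment, and no untreated animal was analysed here. Rescue cells and surviving host cells carry no barcode and give no reads, so the shares describe only the barcoded part of each population. The labels give neither the numbers of sorted cells nor the markers of the sorts, and DNA counts hold no expression by which the cell types could be checked.

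A lentiviral barcode is copied into the genome of the infected cell and inherited by its descendants, so populations derived from a founder carry its sequence. B cells mature in the bone marrow and T cells in the thymus, both through lymphoid progenitors, whereas monocytes and neutrophils come from myeloid progenitors and are short-lived in blood. Barcodes found in lymphoid and not in myeloid blood cells are the readout with which lymphoid-biased output of a founder is looked for. Tissue macrophages can be long-lived, and are replaced to differing degrees by blood monocytes, which leave the marrow through the chemokine receptor Ccr2.

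All 22 sequences follow, because they are the members themselves and the only identity a barcode has. They are synthetic and have no position in a genome. They are named by mouse and by rank of the mean of the B and T share, from 1A to 3G, and written 5′ to 3′ in lower case. Capitals mark bases that depart from the design in which G or C alternates with A or T. Of the 22 barcodes, 20 followed it over all 52 bases, and 3C and 3E departed from it at 1 base each.
1A: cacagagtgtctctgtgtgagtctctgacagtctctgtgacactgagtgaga
1B: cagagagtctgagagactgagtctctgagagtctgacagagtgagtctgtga
1C: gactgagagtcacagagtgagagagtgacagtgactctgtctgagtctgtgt
1D: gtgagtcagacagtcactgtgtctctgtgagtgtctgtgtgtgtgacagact
1E: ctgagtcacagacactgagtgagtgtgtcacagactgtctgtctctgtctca
1F: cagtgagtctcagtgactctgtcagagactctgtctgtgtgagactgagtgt
2A: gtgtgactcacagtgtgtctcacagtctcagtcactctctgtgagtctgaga
2B: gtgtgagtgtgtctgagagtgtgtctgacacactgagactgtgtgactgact
2C: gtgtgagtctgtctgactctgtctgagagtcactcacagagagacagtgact
2D: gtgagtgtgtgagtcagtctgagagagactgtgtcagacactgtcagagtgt
2E: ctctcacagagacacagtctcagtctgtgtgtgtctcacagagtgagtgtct
2F: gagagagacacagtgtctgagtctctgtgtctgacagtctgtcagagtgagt
2G: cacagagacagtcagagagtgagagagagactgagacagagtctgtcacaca
2H: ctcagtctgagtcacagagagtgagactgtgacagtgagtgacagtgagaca
2I: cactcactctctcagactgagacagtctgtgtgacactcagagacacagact
3A: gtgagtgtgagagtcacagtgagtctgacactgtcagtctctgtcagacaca
3B: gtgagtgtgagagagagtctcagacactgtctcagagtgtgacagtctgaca
3C: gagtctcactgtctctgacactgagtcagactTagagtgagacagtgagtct
3D: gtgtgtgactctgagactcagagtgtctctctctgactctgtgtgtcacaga
3E: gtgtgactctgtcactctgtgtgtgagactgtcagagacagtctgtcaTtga
3F: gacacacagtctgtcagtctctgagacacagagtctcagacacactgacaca
3G: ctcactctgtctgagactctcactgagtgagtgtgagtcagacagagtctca

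No member was a near copy of another barcode. Each was compared with all other barcodes that reached 0.05% in any population of its mouse, and the nearest differed at 11 to 18 of the 52 bases. The members are therefore separate sequences, not 1-base variants of an abundant barcode.

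The members made up a small part of both lymphoid populations. Summed over its members, mouse 1 had a share of reads of 0.383% in B cells and 1.36% in T cells. Mouse 2 had 1.25% in B cells and 1.61% in T cells, and mouse 3 had 0.655% in B cells and 2.05% in T cells. The sum averaged 0.764% ± 0.445 in B cells and 1.68% ± 0.348 in T cells (SD, n = 3 mice each). Most barcodes shared by B and T cells were also found in blood myeloid cells. Of 249 barcodes that met the B and T cell conditions, 22 stayed below 0.01% in monocytes and neutrophils, 118 reached 0.01% but not 0.1% in either, and 109 reached 0.1%. The 227 with a myeloid share of 0.01% or more held 68.4% ± 3.32 of the reads in B cells and 94.5% ± 0.997 in T cells (SD, n = 3 mice each).

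Samples held 6808221 to 15745444 reads, so that the 0.01% limit corresponded to 681 to 1575 reads and was far above the share of at most 4.41e-05% that a count of 0 allows. Wilson 95% intervals were narrow at this depth, but for some shares near 0.01% they crossed that limit. Among these were the neutrophil shares of 2G (0.00931% to 0.0106%) and 2B (0.00877% to 0.0101%). The smallest lymphoid share of a member, 0.0115% of T cell reads for 2G, rested on 1273 reads. No molecular identifiers are described for the PCR, so intervals and limits cover counting error only, and a share of reads is not a share of cells. With few cells behind a low share, a barcode could be missed in a sort, and this was not tested because cell numbers are not given.

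T cells were the richer lymphoid population for most members. The share was higher in B cells for 7 members and in T cells for 15. With 0.01% added to each share, 4 members were over 4-fold higher in B cells, 10 were over 4-fold higher in T cells, and 8 lay within 4-fold. Over all 473 lymphoid barcodes, 59.6% were over 4-fold higher in B cells and 20.5% in T cells, but the rule requires reads in both and removes barcodes of B cells alone, so nothing is read from the difference. The median log2 ratio of B to T share was -1.77, ranging from -4.43 to 3.22. It was -2.15 in mouse 1, 0.68 in mouse 2 and -2.44 in mouse 3. In mouse 2, 5 of 9 members were higher in B cells, whereas 0 of 6 were in mouse 1 and 2 of 7 in mouse 3.

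The 10 members over 4-fold richer in T cells after this addition belonged to all 3 mice, with 3 in mouse 1, 2 in mouse 2 and 5 in mouse 3. The most T-rich was 2C, with 0.0119% in B cells and 0.461% in T cells, a 38.9-fold higher share in T cells (Wilson 95% interval 0.0113% to 0.0125% in B cells and 0.457% to 0.465% in T cells). Its B cell share was close to the 0.01% limit and its T cell share was the second highest of any member. The highest was that of 3A, with 0.162% in B cells and 0.951% in T cells. In the same mouse, 3B had 0.0205% in B cells and 0.426% in T cells, and 3C had 0.0197% in B cells and 0.375% in T cells. The share in T cells was 20.8 times that in B cells for 3B and 19.0 times for 3C. In mouse 1 the most T-rich was 1E, with 0.0214% in B cells and 0.236% in T cells, and 1D was like it with 0.0330% in B cells and 0.2998% in T cells. The others in this group, 1B, 2E, 3F and 3G, had 0.0159% to 0.0465% of B cell and 0.125% to 0.289% of T cell reads.

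The 4 members over 4-fold richer in B cells, again with 0.01% added to each share, came from mice 2 and 3. The most B-rich was 2G, with 0.190% in B cells and 0.0115% in T cells, a 16.6-fold higher share in B cells. In mouse 3, 3E had 0.204% in B cells and 0.0143% in T cells, and 3D had 0.214% in B cells and 0.0179% in T cells. The remaining one, 2F, had 0.1899% in B cells and 0.0186% in T cells. Among the 8 members within 4-fold, 2A held the highest B cell share of all members, 0.394%, beside 0.242% of T cell reads. The members 1A and 1C were nearly even, with 0.135% and 0.128% of B cell reads and 0.231% and 0.207% of T cell reads. The others within 4-fold were 1F, 2B, 2D, 2H and 2I, with 0.0199% to 0.136% of B cell and 0.0230% to 0.445% of T cell reads. Without the addition of 0.01%, 1F would be over 4-fold higher in T cells (5.09-fold) and 2H over 4-fold higher in B cells (4.65-fold).

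Several members lay close to the limits that define them. The lowest share in the poorer lymphoid population was 0.0115%, and the nearest barcode left out by this condition had 0.00931%. The lowest share in the richer one was 0.101%, against 0.0975% in the nearest barcode left out. The highest myeloid share of a member was 0.00995%, and the nearest barcode left out had 0.0101%. There were 28 barcodes of B and T cells between 0.01% and 0.02% in the higher of monocytes and neutrophils, and 10 members at 0.005% or more. The group is thus the low end of a continuous range of myeloid shares, not a set apart.

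Reads in myeloid blood cells lay below the limit for every member but were not absent. Every member had at least 4 reads in monocytes and in neutrophils, and 8 members were below 0.001% in both. Below that level were 16 members in monocytes and 10 in neutrophils, and 15 of 22 had the higher share in neutrophils. The higher lymphoid share exceeded the higher myeloid share by 11.8-fold in 2I and by 2720-fold in 3B, with a median of 81.3-fold. The same barcodes were also read in the 16 samples of the other mice, and the median share there is called the background. The source of those reads was not tested. In the other mice the median share was 0.000215%, and 21 of 22 members had reads in all 16 samples. The shares of 2G (0.00995%), 2B (0.00939%) and 3A (0.00842%) in neutrophils were above this median. For 3A the highest share in another mouse, 0.00925% in T cells of mouse 2, was above its own in neutrophils, whereas 2G and 2B reached at most 0.000273% and 0.000405% in other mice. In monocytes, 2G had 0.000104% and 2B had 0.000228%, whereas 3A had 0.00787%.

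In tissue, most members were present in cardiac macrophages and in renal M2 macrophages, and few in renal M1 macrophages. Macrophage shares were not used to choose the members, but the limit on blood myeloid cells bears on the M1 shares, as given below. At 0.01% or more, 20 of 22 members were present in Ccr2hi, 19 in Ccr2lo, 18 in M2 and 2 in M1 macrophages. Of the 473 lymphoid barcodes, 93.0% were present in Ccr2hi, 94.1% in Ccr2lo, 93.7% in M2 and 41.9% in M1 macrophages. For the members this amounts to 90.9% (Ccr2hi), 86.4% (Ccr2lo) and 81.8% (M2). The lymphoid barcodes under 0.01% in monocytes and neutrophils, 120 with the members included, reached 85.0%, 85.8% and 84.2% in the same order, so nothing particular to the members is read from these counts. The 18 members found in M2 were all present in Ccr2hi and Ccr2lo as well. Presence in all 3 of these subsets was thus 81.8% of members, against 88.8% of the lymphoid barcodes and 76.7% of the 120. The members not present in all 3 were 1F, 2D, 2H and 2I.

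Summed over members, M1 macrophages had 0.0423% of reads in mouse 1, 0.0137% in mouse 2 and 0.0211% in mouse 3. The sum was 0.434%, 0.634% and 1.03% in Ccr2hi macrophages of mice 1, 2 and 3, and 0.543%, 0.597% and 0.971% in Ccr2lo macrophages. In M2 cells it was 0.329%, 0.595% and 0.814% in mice 1, 2 and 3. All 3 M1 samples lay below all 9 samples of the other subsets. The sum averaged 0.0257% ± 0.0148 in M1, against 0.698% ± 0.301 in Ccr2hi and 0.704% ± 0.233 in Ccr2lo macrophages of the heart and 0.579% ± 0.243 in the renal M2 subset (SD, n = 3 mice each). On the log10 scale with 0.01% added, M1 differed from the other 3 subsets by -1.27, a ratio of geometric means of 0.0533 (exact permutation test, two-sided, 3 samples against 9, p = 0.00455, Benjamini-Hochberg adjusted p = 0.0273 over 6 tests). The 4 subsets together differed as well (eta squared 0.938, exact permutation p = 0.0134, adjusted p = 0.0403). Neither test pairs the subsets of a mouse. Permuted within mice, the exact permutation tests gave p = 0.0156 for M1 and p = 0.0122 for the 4 subsets, with an adjusted p = 0.0469 for each.

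This low level in M1 macrophages went with the low level in blood myeloid cells that the rule imposes. Of the members 9.09% were present in M1 macrophages, and of the 120 lymphoid barcodes under 0.01% in monocytes and neutrophils, members included, 9.17%. The 227 barcodes of B and T cells with a myeloid share were present in M1 in 67.4% of cases. The M1 shares are thus not unrelated to the condition that chose the members. The tests of M1 and of the 4 subsets are therefore not support for a trait of the members. With M1 left out, no difference among Ccr2hi, Ccr2lo and M2 passed the test (eta squared 0.0827, exact permutation p = 0.739, adjusted p = 1, added after the values were seen). The calls on M1 and on the 4 subsets were also lost without mouse 1, 2 or 3. With 2 mice neither test can pass the threshold after adjustment, so this loss was fixed by the number of mice. The M1 difference was then -1.45 to -1.17 and the eta squared of the 4 subsets 0.917 to 0.982. With 2 mice left, the adjusted p was 0.190, 0.214 and 0.214 for M1 and 0.190, 0.314 and 0.343 for the 4 subsets, without mouse 1, 2 and 3 in turn (exact permutation tests).

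The 2 members present in M1 macrophages were 1B with 0.0184% and 1C with 0.0101%, and 12 of the 22 were under 0.001% there. The Wilson 95% interval of 1C, 0.00949% to 0.0106%, crossed the 0.01% limit. The median share of a member was 0.000328% in M1, against 0.0602% in M2, 0.0590% in Ccr2hi and 0.0640% in Ccr2lo macrophages. M1 was the lowest of the 4 subsets for 21 members.

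Ccr2hi and Ccr2lo macrophages held the members at nearly the same levels. The summed share in Ccr2hi was 0.7999, 1.06 and 1.06 times that in Ccr2lo in mice 1, 2 and 3 (difference -0.0154 on the log10 scale, exact permutation p = 1, adjusted p = 1). With 3 samples against 3 the exact test cannot go below p = 0.1. Member by member, 13 were higher in Ccr2hi macrophages, where 48.8% of the lymphoid barcodes were. With 0.01% added to each share, none of the 22 differed by over 4-fold, against 0.211% of lymphoid barcodes over 4-fold higher in Ccr2hi and 0.634% over 4-fold higher in Ccr2lo. The log2 ratio of Ccr2hi to Ccr2lo, computed likewise, ranged from -0.74 in 3G to 1.22 in 3F. Without this addition 1F would pass 4-fold, with 0.0106% in Ccr2hi and 0.000560% in Ccr2lo. Across the 22 members the log10 shares of Ccr2hi and Ccr2lo had a Pearson correlation of 0.94 and a Spearman correlation of 0.91. This is a description, since members of a mouse share their libraries.

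Renal M2 macrophages held them at a level near that of the heart. Their summed share was 0.674, 0.966 and 0.815 times the mean of the cardiac subsets in mice 1, 2 and 3, lower in 3 of 3 mice (difference -0.0891 on the log10 scale, exact permutation test, two-sided, 3 samples against 6, p = 0.429, adjusted p = 0.643). This test does not pair the subsets of a mouse. Permuted within mice, the exact permutation test gave p = 0.0370 and adjusted p = 0.0741. Equal levels are therefore not read from the unpaired p. M2 exceeded the cardiac mean for 14 of 22 members, where it did for 41.4% of the lymphoid barcodes. It was the highest subset for 13 members, Ccr2lo for 5 and Ccr2hi for 4. With 0.01% added to each share, 2D was over 4-fold lower in M2, with 0.00558% in M2 against 0.0454% in Ccr2hi and 0.0654% in Ccr2lo macrophages. Of the lymphoid barcodes, 1.48% were over 4-fold lower in M2 and 0.211% over 4-fold higher, which 0 members were. Without the addition, 2H and 2I would be over 4-fold higher in M2, since their cardiac shares were close to 0. The correlation of log10 shares between M2 and Ccr2hi was 0.82 (Pearson) and 0.83 (Spearman) over the 22 members.

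The 4 B-rich members differed widely in their macrophage levels. In mouse 3, 3E had 0.376% of Ccr2hi, 0.353% of Ccr2lo and 0.108% of M2 reads. Its partner in profile, 3D, had 0.347% of Ccr2hi (Wilson 95% interval 0.344% to 0.350%), 0.338% of Ccr2lo and 0.128% of M2 reads. These were the highest cardiac shares of any member and exceeded the 0.204% and 0.214% that 3E and 3D had in B cells. The B-rich 2F had 0.0128% of Ccr2hi, 0.0104% of Ccr2lo and 0.0148% of M2 reads, and 2G had 0.126% of Ccr2hi, 0.0504% of Ccr2lo and 0.0543% of M2 reads.

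In 5 members a macrophage subset exceeded both lymphoid populations, which 25.4% of the 473 lymphoid barcodes did. Besides 3D and 3E, these were 1B, 3F and 3G, all T-rich. In mouse 1 the share of 1B was 0.331% in Ccr2lo, 0.234% in Ccr2hi and 0.137% in M2 macrophages, against 0.0465% in B and 0.289% in T cells. The share of 3F was 0.197% in M2, 0.103% in Ccr2hi and 0.0388% in Ccr2lo macrophages, against 0.0182% in B and 0.142% in T cells. That of 3G was 0.173% in M2, 0.132% in Ccr2lo and 0.0747% in Ccr2hi macrophages, against 0.0159% in B and 0.125% in T cells. Both 3F and 3G were thus highest in the kidney, in M2 macrophages, and 1B, 3D and 3E in the heart. Neither 3F nor 3G is among the members named by rule. They were singled out after their values were seen.

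Like most members, 2A, 2B, 2C, 2E and 3A had lower shares in every macrophage subset than in their richer lymphoid population. This did not hold for 1B, 3D and 3E, also named by rule, which had a cardiac share above their richer lymphoid share. For 3A, the member with the highest T cell share, the shares in Ccr2hi, Ccr2lo and M2 macrophages were 0.0507%, 0.0669% and 0.0889%. For 2A they were 0.194%, 0.201% and 0.211% in the same order, an even level over heart and kidney, with 0.000256% in M1. For 2B they were 0.143%, 0.140% and 0.164%, and for 2C they were 0.0684%, 0.0625% and 0.107%. Within these 3 members of mouse 2 the subsets other than M1 differed little, although 2C was far more T-rich than 2A. The T-rich 2E had 0.0438% of Ccr2hi, 0.0680% of Ccr2lo and 0.0258% of M2 reads.

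In mouse 1, the members other than 1B stayed under 0.1% in every macrophage subset. The shares of 1A were 0.0673% (Ccr2hi), 0.0988% (Ccr2lo) and 0.0549% (M2), and those of 1C were 0.0673%, 0.0850% and 0.0655% in the same order. Both 1D and 1E were lower, with 0.0291% and 0.0256% of Ccr2hi, 0.0148% and 0.0124% of Ccr2lo, and 0.0351% and 0.0292% of M2 reads. The T-rich members 3B and 3C of mouse 3 were at a similar level, with 0.0308% and 0.0434% of Ccr2hi, 0.0255% and 0.0171% of Ccr2lo, and 0.0506% and 0.0686% of M2 reads. All 4 were highest in M2 among the macrophages.

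In contrast, 2 members of mouse 2 were close to background in every cardiac sample. The share of 2H was 4.03e-05% in Ccr2hi, 5.84e-05% in Ccr2lo, 2.33e-05% in M1 and 0.00240% in M2 macrophages, beside 0.107% in B and 0.0230% in T cells. That of 2I was 5.64e-05% in Ccr2hi, 2.92e-05% in Ccr2lo, 3.10e-05% in M1 and 0.00962% in M2 macrophages, beside 0.103% in B and 0.0263% in T cells. In samples of other mice the median share was 3.38e-05% for 2H and 5.62e-05% for 2I, so that the cardiac and M1 values lay near the background and the M2 values above it. The third low member, 1F, had 0.0106% of Ccr2hi, 0.000560% of Ccr2lo and 0.00783% of M2 reads. These 3 members had the lowest shares in their richer lymphoid population, 0.107%, 0.103% and 0.101%, and were singled out after their values were seen.

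Some members of a mouse had nearly the same shares in lymphoid cells and in macrophages other than M1. Monocytes and neutrophils were left out of this comparison, since the rule holds all members low there, and so was M1, where most members were near 0. Among the 72 pairs of members of the same mouse, 4 stayed within 1.55-fold of each other in B cells, T cells, Ccr2hi, Ccr2lo and M2 macrophages, and the next pair differed by up to 2.87-fold. The 4 pairs were 1A with 1C (at most 1.19-fold), 3D with 3E (1.25-fold), 3B with 3C (1.49-fold) and 1D with 1E (1.55-fold). In M1 they were at most 2.85-fold apart, and at shares under 0.01% they were up to 30.1-fold apart in monocytes and 26.3-fold in neutrophils. Their sequences, printed above, differed at 21, 21, 25 and 24 of the 52 bases, so neither member of a pair is a near copy of the other. Such pairs need not stand for separate founders, and counting each pair once leaves 18 profiles. With 1 member of each pair left out, the M1 difference on the log10 scale was -1.26 (exact permutation p = 0.00455, adjusted p = 0.0273), but the test of the 4 subsets no longer passed the threshold (eta squared 0.946, exact permutation p = 0.0168, adjusted p = 0.0505). With likeness measured instead over all 8 populations after adding 0.01%, which adds the pair 2H with 2I and leaves 17 profiles, it passed by as little (exact permutation p = 0.0164, adjusted p = 0.0491). Both ways of pairing were chosen after the values were seen.

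The members were set beside the 92 barcodes of B cells alone, with 0.1% or more in B cells and under 0.01% in the other 3 blood populations, and the 6 of T cells alone, defined likewise. The median share in the richer lymphoid population was 0.213% ± 0.0215 for members, 0.170% ± 0.0333 for B cell barcodes and 0.177% ± 0.0981 for T cell barcodes (SD, n = 3 mice each). At least 1 macrophage subset held 92.6% ± 12.8 of members, 93.4% ± 0.956 of B cell barcodes and 83.3% ± 28.9 of T cell barcodes (SD, n = 3 mice each), and 97.5% of all 473 lymphoid barcodes. The test of the 3 classes did not pass the threshold (eta squared 0.0857, exact permutation p = 1, adjusted p = 1). With 2 mice left, the exact test of 3 classes cannot pass the threshold whatever the values, so no call is read from it. The eta squared was then 0.199 without mouse 1, 0.983 without mouse 2 and 0.190 without mouse 3. The T cell class had 1, 4 and 1 barcodes in mice 1, 2 and 3, which limits what its values can show.

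The macrophage level was also set against the lymphoid level, as a description, since the lymphoid shares define the classes. The mean summed share of the 4 subsets was 0.386, 0.321 and 0.523 times that of B and T cells for members in mice 1, 2 and 3, against 0.501, 0.672 and 0.695 times for B cell barcodes. The ratio was lower for members in 3 of 3 mice, but the ranges overlapped. It was 1.52, 0.0868 and 0.0414 for T cell barcodes. Nothing on the classes is read from these ratios.

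Barcodes of B and T cells with a myeloid share had another distribution over the macrophages. The summed share of members in M1 was 0.0474 ± 0.0431 times the mean of the other 3 subsets, against 2.40 ± 0.425 times for these barcodes (SD, n = 3 mice each). The condition on monocytes and neutrophils bears on this ratio, and the difference was not tested. In Ccr2hi, Ccr2lo and M2 together, members had 0.538 ± 0.138 times their lymphoid share, and the barcodes with a myeloid share had 0.452 ± 0.110 times (SD, n = 3 mice each). The values of the mice overlapped.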

How the data were processed

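Genomic DNA barcodes were amplified in 18 PCR cycles and 9 to 11 index cycles, per the labels' protocols. Each deposited file gives raw read counts of 1 sample, per the file headers, with a line for every 52-base sequence. The trimming, filtering and counting done by the authors are not given in the sources used here. Each count was turned into a percent of the reads of its sample (6808221 to 15745444 reads). Samples were grouped by population and mouse number in their titles.

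The numbers name the animal and pair the samples. The mean overlap of shares (sum of the smaller share) was 0.410 over 84 pairs of populations with the same number and 0.0136 over 168 pairs with different numbers.

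Most members were at trace level in other mice, and 3 of 22 reached 0.01% there, so a single barcode has no replicate mice and no count model was fitted to it. Members were summed per sample and compared by exact permutation tests (Python 3.11.15, numpy 2.4.6, pandas 2.3.3), with Benjamini-Hochberg adjustment over 6 tests and 0.05 as the threshold. The steps were tested on simulated data. The pseudocount was 0.01%. Wilson intervals (95%) used scipy 1.17.1. The labels give no batch.

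The members, lists and tests were chosen with earlier results of these data known. By rule, the text names in each mouse the 5 members with the highest mean of B and T share, the most B-rich and most T-rich, and the one highest in macrophages, 16 in all. The others are described because the group is small. Alternatives were other thresholds and pseudocounts, thinning, merging of 1-mismatch sequences, the alternating pattern only, removal of low counts and of barcodes recurring between mice, permutation within mice, a cap on the lymphoid share, and leaving out each mouse.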

Additional observations from a re-analysis of the deposited data

Results flagged for a closer look

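Reads of 3 members reached 0.01% in another mouse, where the comparisons above used them only for the background. The barcode 1C of mouse 1 held 0.0313% of B cell reads of mouse 3, with 0.0234% in Ccr2hi and 0.0138% in Ccr2lo macrophages and 0.000497% in T cells of that mouse. In its own mouse it had 0.128% of B cell reads.

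The barcode 2E of mouse 2 had 0.0216% of Ccr2lo reads in mouse 3 and 0.0189% of M2 reads in mouse 1. The barcode 3G of mouse 3 reached 0.103% of M2 reads in mouse 2, beside 0.0163% in Ccr2hi and 0.0150% in Ccr2lo macrophages and 0.000144% in B cells of that mouse. In its own mouse it had 0.173% of M2 reads. The source of these reads was not tested. Each reached this level in some populations of the other mouse and stayed under 0.001% in others.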

How the results depend on the processing

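Of 167 values recomputed under alternatives, 151 kept their direction and their side of the threshold, or moved less than a set limit. That limit was the spread between mice, except for the number of members, which was judged by a fold limit. Totals of 16 members with limits of 0.005% and 32 with 0.05% required in B or T cells are thus among the 151. Some of the 151 were fixed in advance. With 2 mice no test can pass the threshold after adjustment. The exact permutation test of Ccr2hi against Ccr2lo cannot go below p = 0.1 in any setting. The class comparisons kept their side although their eta squared moved widely, as given below. The 151 are therefore not read as a measure of stability. The number of members was 36 with presence and absence limits of 0.02% and 13 with 0.2% required in B or T cells. When a mouse was left out the total was 13 to 16, only because the members of that mouse were no longer counted. Presence in M1 was 31.25% with limits of 0.005%, 2.78% with 0.02%, 6.25% with 0.05% and 15.4% with 0.2% required in B or T cells, 4.55% after thinning and 15.8% with the alternating pattern only, and presence in Ccr2lo and in M2 was 100% each with 0.2% required. Without each mouse in turn, presence was 86.7% to 100% in Ccr2hi, 80% to 92.3% in Ccr2lo, 0% to 15.4% in M1 and 73.3% to 92.3% in M2, and the median log2 B to T ratio was -2.41 to -0.93. The eta squared of the 4 subsets was then 0.917 to 0.982 and the M1 difference -1.45 to -1.17, each no longer past the threshold. With 2 mice neither test can pass it after adjustment (for M1 the exact permutation p = 0.0357 is the smallest that 2 mice allow). With M1 left out, the eta squared of the subsets was 0.0827. With 1 member of each of 4 alike pairs left out, the eta squared of the 4 subsets was 0.946, with an adjusted p = 0.0505 (exact permutation test), and 0.0491 with 5 pairs. The difference of Ccr2hi and Ccr2lo, no call, turned to 0.0185 with limits of 0.005% and was -0.0357 to 0.0245 without a mouse, 0.0245 without mouse 1. The cause of these changes was not tested. Permuting within mice, with the mouse as a block, changed no call (M1 difference -1.27, exact permutation test, adjusted p = 0.0469, and M2 difference -0.0891, adjusted p = 0.0741). The class comparisons had no value with limits of 0.005%, with 0.2% required or with the alternating pattern only, since a mouse then had no barcode of T cells alone. The eta squared of the macrophage to lymphoid ratio, not used above because the classes are set from lymphoid shares, was 0.246 (exact permutation p = 0.396) and moved to between 0.0700 and 0.943 without a mouse, and that of presence by class from 0.0857 to between 0.190 and 0.983. What the numbers of sorted cells do to absence was not tested.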
